A study of Mus musculus with 13 samples.

Results

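The genes described here are 10 genes of mouse chromosome 3, Pik3ca, Prkci, Ect2, Actl6a, Fxr1, Mecom, Skil, Dcun1d1, Tbl1xr1 and Phc3. Their human orthologs lie near SOX2 in the 3q26-27 region that is often gained in squamous cell carcinoma. They were chosen by name and position, though with earlier results of these data known. All 10 are among the 55332 genes with values in the count table. RNA was sequenced from 13 tumors of mice that carry 1 copy of the NUT carcinoma translocator (NCT) alleles, in which Cre starts NUT carcinoma, an aggressive and poorly differentiated squamous cancer. The 4 oral WT tumors were labelled KRT14-Cre; NCT+/-, and the 4 pancreatic WT tumors Pdx1-Cre; NCT+/-. The 3 pancreatic KO tumors carried Pdx1-Cre, NCT+/- and floxed Sox2 on both chromosomes. The 2 oral KO tumors carried NCT+/- and Sox2fl/fl, and their labels read KRT4Cre where the study names KRT14-Cre. KRT14-Cre acts in the basal layer of stratified epithelia, and Pdx1-Cre in pancreatic progenitors, so that tissue and Cre driver cannot be told apart. The ages of the mice are not in the labels, and the labels number the tumors without naming animals, so that p-values measure the spread between tumors. The KO mice came from crosses with the Sox2fl/fl line, and the 10 genes lie on the same chromosome as the floxed allele. What that line carries next to the allele and the loss of Sox2 itself therefore cannot be told apart in these groups. In bulk tumors, fewer cells of a type and less RNA per cell cannot be told apart either.

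In human squamous tumors the 3q region is usually gained as a block, and several of its genes besides SOX2 have been studied as drivers. PIK3CA is the catalytic subunit of a phosphoinositide 3-kinase, PRKCI an atypical protein kinase C that sets cell polarity, and ECT2 an exchange factor that drives cytokinesis. ACTL6A, MECOM, PHC3, TBL1XR1 and SKIL act on chromatin and transcription, FXR1 binds RNA, and DCUN1D1 helps to attach NEDD8 to cullins. In the mouse the block is split, with the part around Sox2 on chromosome 3 and the part that holds Trp63 on chromosome 16.

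Estimated counts of Sox2 ran from 410 to 680 across oral WT and were 0 and 1 in oral KO tumors, at least 83.8-fold lower with a floor of 3 counts per library. Pancreatic WT tumors held 1111 to 1487 and KO tumors 0 to 2, at least 1036-fold lower by the same floor. The depth ran from 29393925 to 40419965 counts in oral WT, 11735031 to 20431977 in oral KO, 40964171 to 46134532 in pancreatic WT and 89562488 to 120482588 in pancreatic KO tumors, so that depth moved with genotype in both tissues. Markers of squamous tumor epithelium (7 genes) summed to at least 4162 CPM (counts scaled to the size of the library) in every tumor. Markers of skeletal muscle (16 genes) summed to 13.98 to 19.2 CPM in oral WT tumors 1 to 3, 643 CPM in oral WT tumor 4, and 5905 and 3348 CPM in oral KO tumors 1 and 2. Protein-coding genes held 59.5% of the counts of oral KO tumor 1 and 84.5% of oral KO tumor 2, against 88.5% to 90.0% in the oral WT tumors. Pancreatic acinar markers (8 genes) summed to 281 CPM in pancreatic KO tumor 3 and to 4.03 to 13.95 CPM in the other pancreatic tumors. Fibroblast markers (8 genes) summed to 8729 to 19149 CPM in oral WT and 1138 to 2231 CPM in pancreatic WT tumors. Sums of the other marker lists overlapped between WT and KO tumors of each tissue: endothelial (6 genes, 83.2 to 189 CPM over all tumors), leukocyte (8 genes, 106 to 368 CPM), adipocyte (5 genes, 4 of them under 1 CPM in every tumor, 101 to 2961 CPM) and proliferation (17 genes, 915 to 2186 CPM).

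The members lie within 13.86 Mb, from the start of Tbl1xr1 to the end of Dcun1d1 (GRCm38, chr3:22076652-35937445). Dcun1d1 lies 1239.6 kb beyond Sox2 and the other 9 lie before it, from Fxr1 at -580.1 kb to Tbl1xr1 at -12433.8 kb. The sequences before the starts of 4 members are shown because these are the members whose RNA differed with genotype or tissue in the comparisons that follow. RefSeq places 13 starts for 9 of the members on GRCm38.p6, and each sequence holds the 250 bases before a start, 5′ to 3′ on the strand of the gene. Capitals mark ACAAT or its reverse complement ATTGT, a form of the core of the sequence that SOX proteins bind. Other forms of that core were not searched.

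Tbl1xr1 (chr3:22076402-22076651, plus strand): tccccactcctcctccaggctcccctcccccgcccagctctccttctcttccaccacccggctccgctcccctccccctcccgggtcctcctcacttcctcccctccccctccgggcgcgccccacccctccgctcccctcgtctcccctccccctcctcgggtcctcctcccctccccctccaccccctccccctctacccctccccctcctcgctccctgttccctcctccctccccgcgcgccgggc
Mecom, upstream start (chr3:30509760-30510009, minus strand): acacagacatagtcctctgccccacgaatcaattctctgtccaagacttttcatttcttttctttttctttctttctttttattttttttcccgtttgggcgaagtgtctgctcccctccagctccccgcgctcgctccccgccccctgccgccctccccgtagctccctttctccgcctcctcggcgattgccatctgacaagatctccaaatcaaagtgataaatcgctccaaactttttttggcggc
Mecom, downstream start (chr3:30013205-30013454, minus strand): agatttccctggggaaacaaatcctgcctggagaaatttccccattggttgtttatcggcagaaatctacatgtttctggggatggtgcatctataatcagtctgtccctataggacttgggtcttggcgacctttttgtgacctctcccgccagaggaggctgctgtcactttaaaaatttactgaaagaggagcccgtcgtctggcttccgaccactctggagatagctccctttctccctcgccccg
Phc3 (chr3:30969416-30969665, minus strand): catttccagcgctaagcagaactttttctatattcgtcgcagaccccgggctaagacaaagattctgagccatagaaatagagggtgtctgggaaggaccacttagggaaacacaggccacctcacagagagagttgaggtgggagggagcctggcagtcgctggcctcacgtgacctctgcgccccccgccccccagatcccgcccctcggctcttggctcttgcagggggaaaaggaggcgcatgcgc
Prkci (chr3:30995521-30995770, plus strand): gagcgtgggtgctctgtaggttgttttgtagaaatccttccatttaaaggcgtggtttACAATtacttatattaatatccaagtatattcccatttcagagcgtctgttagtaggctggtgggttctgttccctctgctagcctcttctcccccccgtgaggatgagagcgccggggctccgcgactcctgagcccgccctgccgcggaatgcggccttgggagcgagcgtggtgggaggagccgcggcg

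ACAAT was found on either strand before 3 of the 13 starts, those of Prkci and Fxr1 and 1 of those of Dcun1d1. It was found before 27.7% of 32851 RefSeq starts of all genes. These exact letters are not in the windows of Tbl1xr1, Mecom and Phc3. That says nothing of other forms of the SOX core within the windows, or of sites elsewhere. The window of Tbl1xr1 was 85.2% C or T on the strand of the gene and 76.0% G or C.

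Levels of the members were compared with each other per length, as CPM per kilobase of exon. Tbl1xr1 was highest in the WT tumors, at 32.4 ± 7.05 CPM per kb in oral (SD, n = 4) and 34.1 ± 4.01 in pancreatic tumors (SD, n = 4). Prkci came next at 27.8 ± 6.14 and 24.8 ± 1.22 CPM per kb (SD, n = 4 each). Its range overlapped that of Tbl1xr1 in oral WT tumors and lay below it in pancreatic WT tumors. Skil followed at 16.8 ± 4.30 and 16.9 ± 3.77 CPM per kb. Fxr1, Actl6a, Ect2, Dcun1d1 and Pik3ca lay between 8.40 and 13.6 CPM per kb in the WT groups, and each overlapped the next in the order. Phc3 was lower at 4.46 ± 0.44 and 4.30 ± 0.28 CPM per kb, below the range of its neighbour in both tissues. Mecom was lowest in WT tumors at 0.30 ± 0.14 CPM per kb in oral and 1.01 ± 0.66 in pancreatic tumors. The order differed in pancreatic KO tumors, where Prkci led with 25.1 ± 0.74 CPM per kb (SD, n = 3), Tbl1xr1 followed Skil with 16.6 ± 0.96 and Mecom reached 8.38 ± 3.48, a level whose range overlapped those of Actl6a and Ect2.

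**Figure D1:**
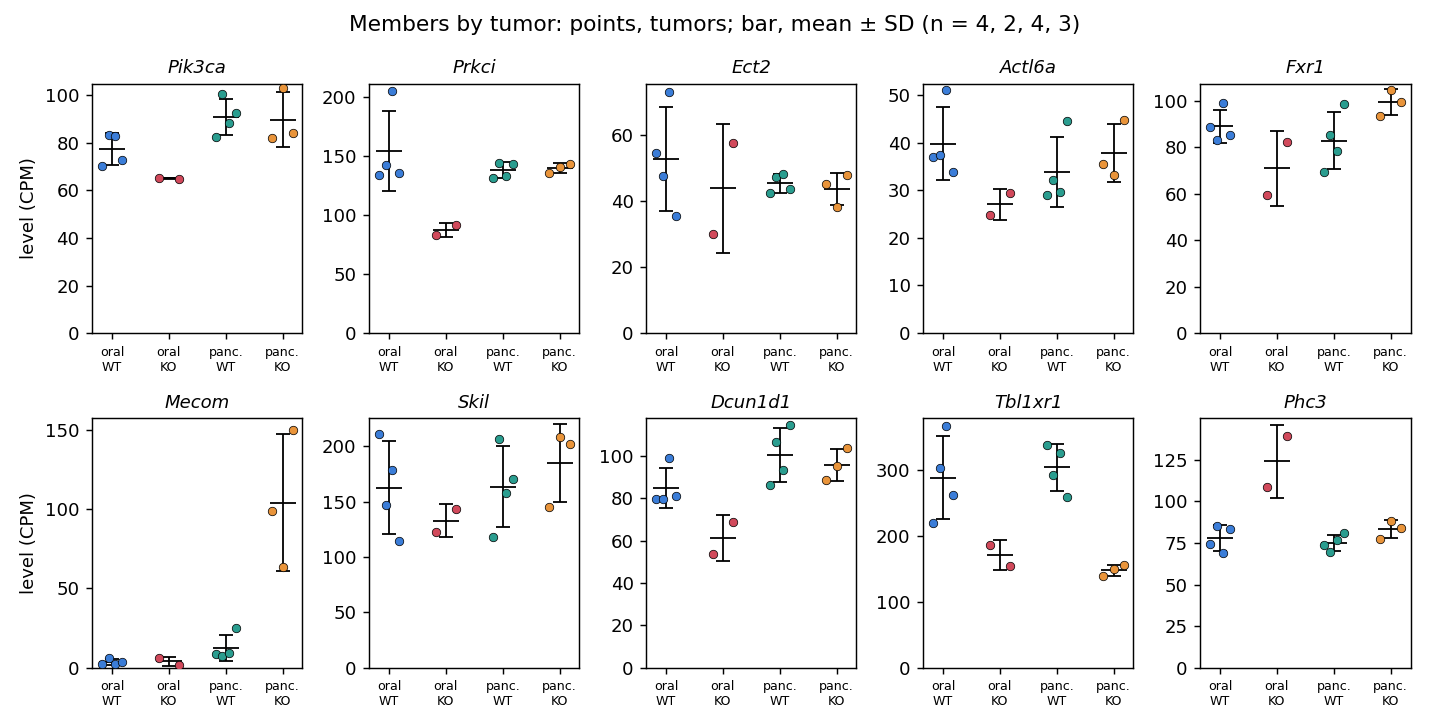
Level of each of the 10 members (CPM, linear axes from 0) in 13 tumors by tissue and genotype (panc., pancreatic); points are tumors, and bars are the mean ± SD. Tbl1xr1 is lower in all 5 KO tumors than in every WT tumor, Mecom is high in the 3 pancreatic KO tumors at 63.8 to 149.8 CPM, and Prkci stands at 83.1 and 91.4 CPM where Sox2 was deleted in oral tumors.

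Deletion of Sox2 in oral tumors went with a rise of 1 member, Phc3, a Polycomb subunit (log2 fold change 0.74, SE 0.17, adjusted p = 0.0357, edgeR quasi-likelihood test with Benjamini-Hochberg adjustment). The other 9 did not pass the threshold of an adjusted p under 0.05. An unadjusted p under 0.05 was found for 3 of 10. That count has no share of all genes beside it, so that it is not a result about the members. Over all 22342 genes tested 13.8% passed, 9.2% higher and 4.58% lower in KO tumors. KO and WT tumors did not overlap for 7 of 10 members, against 48.0% of all genes, so that the share of members is not a result about the members. Across members the median log2 fold change was -0.24 and that of all 16352 protein-coding genes tested was -0.21. Scaling on protein-coding genes alone raised oral log2 fold changes by 0.19, and on that scale Pik3ca and Ect2 stood at 0.02 and 0.01 in place of -0.17 and -0.20. In CPM scaled on protein-coding genes, KO and WT tumors overlapped for Pik3ca, Fxr1 and Dcun1d1, which are among the 7 above.

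In pancreatic tumors 1 member fell, Tbl1xr1, a corepressor subunit (log2 fold change -1.02, SE 0.13, adjusted p = 0.0181). Mecom, a zinc finger transcription factor, had the largest difference of any member but narrowly missed the threshold (log2 fold change 3.06, SE 0.50, adjusted p = 0.0532). Over all 24653 genes tested 0.706% passed, 0.349% higher and 0.357% lower. KO and WT tumors did not overlap for 2 of 10 members, Tbl1xr1 and Mecom, against 15.6% of all genes. The median over the members was 0.10 and that over 16855 protein-coding genes was 0.02. The other 8 members had log2 fold changes from -0.05 to 0.27, and the widest of their 95% intervals, that of Skil, ran from -0.28 to 0.67.

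Between tissues, in WT tumors, Mecom was lower in oral than in pancreatic tumors (log2 fold change -1.77, SE 0.46, adjusted p = 0.0247), and the other 9 did not pass. Of all 23164 genes tested 23.7% passed, 12.1% higher and 11.6% lower in oral tumors, and 27.9% had groups that did not overlap, as 1 of 10 members had. The test of the interaction asks whether the KO effect differs between the tissues. Prkci and Mecom passed it, both with a lower log2 fold change of KO against WT in oral than in pancreatic tumors. The difference of log2 fold changes, oral minus pancreatic, was -0.84 for Prkci (SE 0.22, adjusted p = 0.0297) and -2.99 for Mecom (SE 0.84, adjusted p = 0.0368). Of 25836 genes tested, 15.3% passed the interaction, 7.71% higher and 7.62% lower. Among 17462 protein-coding genes the split was uneven, with 615 higher and 1746 lower. The median interaction over the members was -0.44 and over protein-coding genes -0.28.

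**Figure D2:**
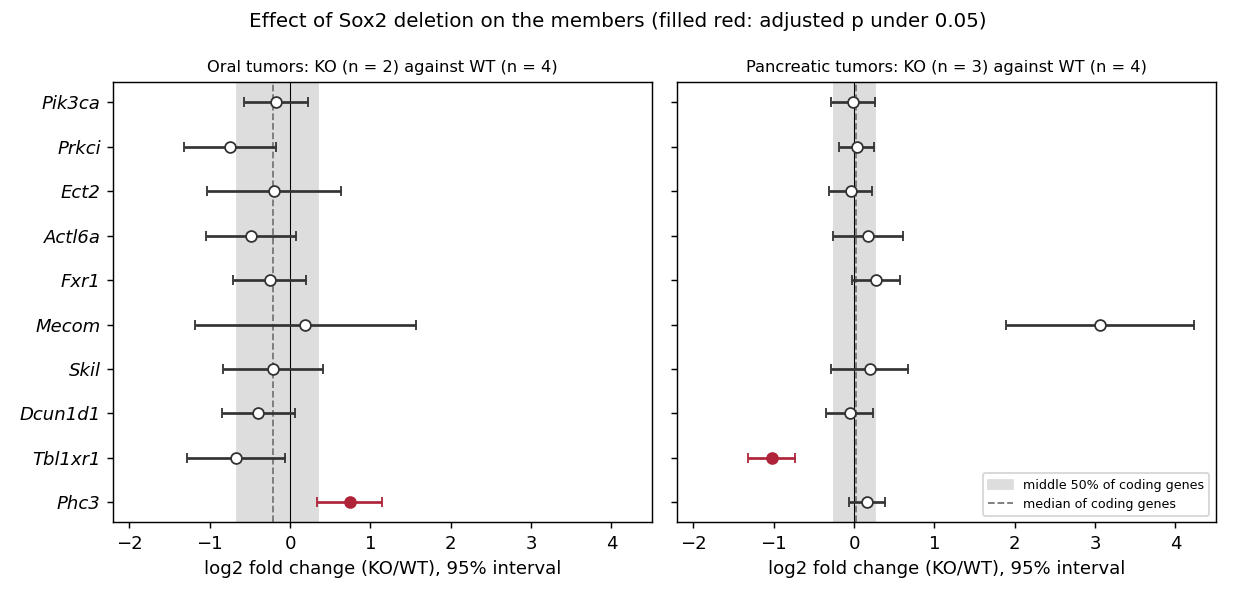
Log2 fold change of each member, KO against WT, in oral (left) and pancreatic tumors (right), with 95% intervals from edgeR; filled red points passed an adjusted p of 0.05, the grey band holds the middle 50% of protein-coding genes and the dashed line is their median. Phc3 passes in oral tumors at 0.74 and Tbl1xr1 in pancreatic tumors at -1.02, while the interval of Mecom in pancreatic tumors runs from 1.89 to 4.23.

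Tbl1xr1 (ENSMUSG00000027630) encodes a WD40 subunit that, with its paralog Tbl1x, bridges the NCoR and SMRT corepressors to their targets. Its level was 339, 293, 326 and 259 CPM in pancreatic WT tumors 1 to 4 and 139, 149.7 and 156 CPM in pancreatic KO tumors 1 to 3. Every KO tumor lay below every WT tumor, 2.03-fold lower in the fit (95% interval of the log2 fold change -1.31 to -0.73). In oral tumors it was 219.6, 304, 367 and 263 CPM in WT and 187 and 155 CPM in KO tumors. These groups did not overlap either, but the difference did not pass (log2 fold change -0.68, SE 0.26, adjusted p = 0.115). The 2 effects were not shown to differ (interaction 0.28, 95% interval -0.27 to 0.84, adjusted p = 0.457). Between WT tumors of the 2 tissues the difference did not pass (log2 fold change -0.08, 95% interval -0.47 to 0.31). Of all genes 174 passed in the pancreas, and 43 to 300 did when 1 tumor was left out. The pancreatic call of Tbl1xr1 was lost without pancreatic WT tumor 3, with adjusted p = 0.0684, and without KO tumor 1, 2 or 3, with adjusted p = 0.0796, 0.0862 and 0.0636, while the log2 fold change stayed between -1.09 and -0.97. It was also lost among protein-coding genes alone (adjusted p = 0.0640).

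No partner of Tbl1xr1 passed in the pancreas. Tbl1x had a log2 fold change of 0.13 there (95% interval -0.17 to 0.42), and the list of 11 NCoR/SMRT genes had no call by edgeR, 1 gene at an unadjusted p under 0.05 and no call by DESeq2. In oral tumors 2 of these 11 fell, the nuclear receptors Rxra (-1.12, SE 0.25, adjusted p = 0.0324) and Nr2f2 (-1.46, SE 0.36, adjusted p = 0.0398), and the median of the list was -0.51. Tbl1x was at -0.60 there (adjusted p = 0.103). Between WT tumors Rxra was higher in oral tumors (0.62, adjusted p = 0.0186) and Nr1d1, a circadian repressor, was lower (-0.84, adjusted p = 0.0371).

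A lincRNA, Gm43672 (chr3:22074412-22076142, minus strand), starts 510 bases before the annotated start of Tbl1xr1 and is read in the opposite direction. It was singled out after its values were seen. It was at 13.4, 8.15, 10.01 and 8.26 CPM in pancreatic WT and 1.57, 2.12 and 4.55 CPM in pancreatic KO tumors. The groups did not overlap, and the difference missed the threshold with edgeR (log2 fold change -1.84, SE 0.41, adjusted p = 0.0885). It passed in 2 of 16 alternatives, DESeq2 with and without apeglm (adjusted p = 0.000273), and the others had adjusted p up to 0.246. In oral tumors it was at 4.92, 11.7, 12.5 and 7.996 CPM in WT and 9.23 and 1.05 CPM in KO tumors, which overlap.

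Mecom (ENSMUSG00000027684) encodes PRDM-type zinc finger proteins, of which the short form is EVI1 and the long form MDS1-EVI1, and it is best known from blood stem cells and myeloid leukemia. Its level was 8.87, 7.39, 9.28 and 24.9 CPM in pancreatic WT tumors 1 to 4 and 98.7, 63.8 and 149.8 CPM in pancreatic KO tumors 1 to 3. The lowest KO tumor was thus above the highest WT tumor, tumor 4, and the fit put KO tumors 8.34-fold higher. In oral tumors it was at 2.63, 6.13, 2.47 and 3.54 CPM in WT and 6.06 and 1.91 CPM in KO tumors, which overlap (log2 fold change 0.19, 95% interval -1.18 to 1.57). Acinar markers summed to 5.34, 4.03 and 281 CPM in pancreatic KO tumors 1 to 3 and to 4.90 to 13.95 CPM in pancreatic WT tumors, and their part in the result was not tested. The pancreatic difference passed in 6 of 17 alternatives, with adjusted p from 7.62e-08 (DESeq2) to 0.137. It passed without pancreatic WT tumor 4 (log2 fold change 3.63, adjusted p = 0.0156) and in the fit of all 13 tumors (adjusted p = 0.0413). The tissue difference was lost without oral WT tumor 1 (adjusted p = 0.0613) or 3 (adjusted p = 0.0632). The interaction was lost without oral WT tumor 2, oral KO tumor 2, pancreatic WT tumor 1, 2 or 3 or pancreatic KO tumor 1 or 3, with adjusted p up to 0.134. Its size rested on single tumors as well, at -4.04 without oral KO tumor 1, -2.32 without oral KO tumor 2 and -3.59 without pancreatic WT tumor 4. The tissue difference was -1.18 without pancreatic WT tumor 4 (adjusted p = 0.0461).

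Mecom spans chr3:29951296-30548008 on the minus strand, and 6 loci annotated as TEC, a class of loci with transcript evidence still to be tested by experiment, lie inside it without touching its exons, 5 of them on its strand. Of the 5 that could be tested in the pancreas, 4 were higher in KO tumors. Genome-wide 6 of 1988 TEC loci tested, 0.302%, were higher in pancreatic KO tumors, and these 4 are among them. They lie between the upstream and the downstream start shown above, at chr3:30501719-30503813 (Gm37652), chr3:30272322-30274385 (Gm38362), chr3:30225573-30227694 (Gm38197) and chr3:30160253-30161886 (Gm38066).

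Gm38197 had 4 to 15 estimated counts in the pancreatic WT and 337, 154 and 267 in the KO tumors (log2 fold change 3.58, SE 0.46, adjusted p = 0.0222). Gm38362 had 1 to 4 estimated counts in WT and 95, 36 and 69 in KO tumors (3.58, SE 0.50, adjusted p = 0.0262). Gm37652 had 6 to 28 estimated counts in WT and 667, 263 and 537 in KO tumors (3.21, SE 0.48, adjusted p = 0.0338). In each of these 3 loci every KO tumor was above every WT tumor, as in Mecom itself. Gm38066 was at 3.38 (SE 0.56, adjusted p = 0.0473), and the fifth, Gm10258, was at 2.15 and did not pass (SE 0.62, adjusted p = 0.148). Of 15 alternatives Gm37652 passed in 10, Gm38197 in 8 and Gm38362 and Gm38066 in 7 each, with adjusted p up to 0.0953, 0.0776, 0.0859 and 0.131 in that order, and no alternative changed their direction. Leaving out a pancreatic KO tumor, any of the 3, ended all 4 calls. Mecomos, annotated antisense to Mecom and overlapping its exons, stood at 0.37 (95% interval -0.28 to 1.01) in counts that the authors made with a setting for stranded reads. In oral tumors Gm37652 was higher in KO tumors as well, with 15 and 33 estimated counts against 0 to 7 (log2 fold change 4.02, SE 0.86, adjusted p = 0.0304). There 43.6% of 1757 TEC loci tested were higher in KO tumors, against 3.51% of protein-coding genes, so that a call on 1 TEC locus carries little in oral tumors.

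**Figure D3:**
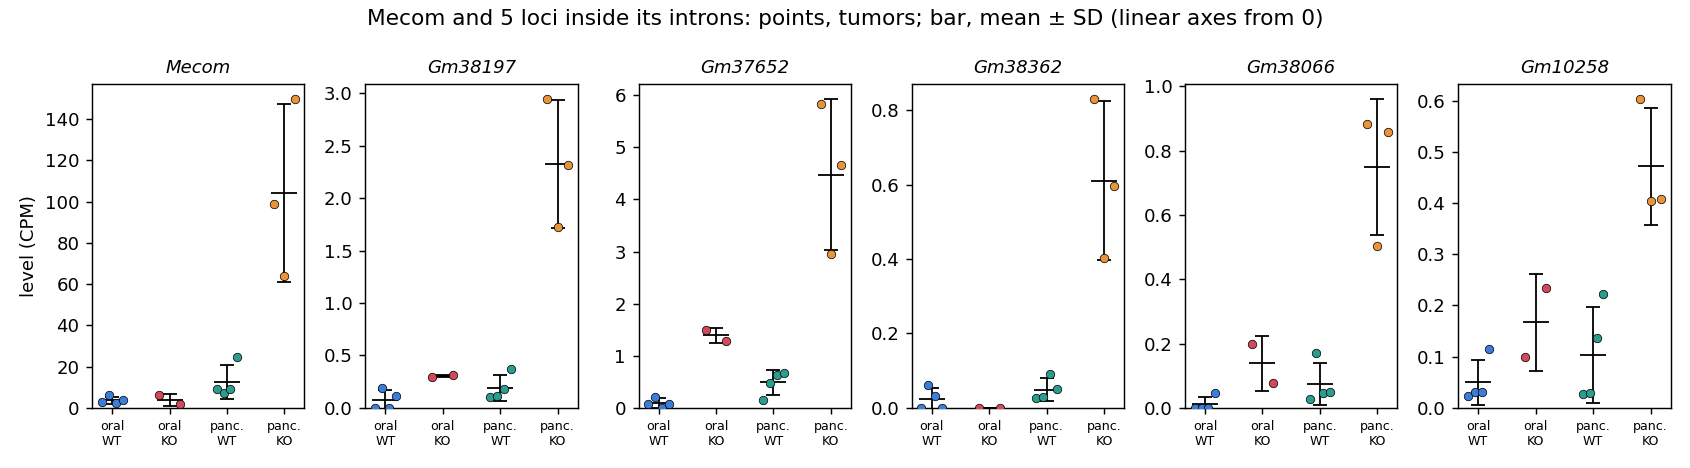
Level (CPM, linear axes from 0) of Mecom and of 5 loci inside its introns in the 13 tumors; points are tumors and bars the mean ± SD. All 6 are higher in each of the 3 pancreatic KO tumors than in any other tumor, Mecom at 63.8 CPM or more and the loci at 0.40 CPM or more.

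Of the 13 other PRDM genes, 10 were tested in the pancreas and none passed with edgeR, with 4 at an unadjusted p under 0.05 and 1 called by DESeq2. Prdm16, the closest paralog of Mecom, was lower in oral than in pancreatic WT tumors (-4.18, SE 0.56, adjusted p = 0.00188). Its difference in pancreatic KO tumors was -1.24 (95% interval -2.15 to -0.34, adjusted p = 0.184). In the tissue comparison 2 of 10 PRDM genes were higher in oral tumors, Prdm8 (1.94, adjusted p = 0.0282) and Prdm11 (0.95, adjusted p = 0.0374). A further 3 were lower, led by Prdm16 and by Prdm1 (-2.59, adjusted p = 0.00303), a regulator of terminal differentiation. In oral KO tumors none of 10 passed with edgeR, with 3 at an unadjusted p under 0.05 and 1 by DESeq2.

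Phc3 (ENSMUSG00000037652) encodes a polyhomeotic protein, a part of Polycomb repressive complex 1 (PRC1), which marks and compacts silent chromatin. It was at 74.5, 85.2, 69.0 and 83.2 CPM in oral WT tumors 1 to 4 and at 108 and 139 CPM in oral KO tumors 1 and 2. Both KO tumors lay above all WT tumors, 1.68-fold in the fit. In the pancreas it was at 73.6, 69.3, 76.9 and 80.7 CPM in WT and 77.6, 88.1 and 84.1 CPM in KO tumors, which overlap (log2 fold change 0.16, 95% interval -0.07 to 0.39). The interaction missed the threshold (0.52, SE 0.19, adjusted p = 0.0727). The oral call was lost without oral WT tumor 1, 2 or 3 or either KO tumor, with adjusted p of 0.0566 to 0.162 and log2 fold changes of 0.59 to 0.90. The part in it of the muscle markers and of the lower protein-coding share, which moved with genotype, was not tested.

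Of the other 20 PRC1 genes none rose in oral tumors, 1 fell, and the median was -0.65. Cbx2, a chromodomain subunit, was the 1 that fell (-0.85, SE 0.20, adjusted p = 0.0378). The paralogs Phc1 and Phc2 were at -0.81 (adjusted p = 0.114) and -0.63 (adjusted p = 0.126), opposite in sign to Phc3, and their KO and WT tumors did not overlap. In the pancreas none of 20 passed, none had an unadjusted p under 0.05, and DESeq2 called none. Phc1 and Phc2 passed the interaction, at -1.19 (adjusted p = 0.0484) and -0.95 (adjusted p = 0.0408). Between WT tumors Cbx7 (1.49, adjusted p = 0.00264) and Cbx6 (2.36, adjusted p = 0.0125) were among 3 PRC1 genes higher in oral tumors, and Pcgf3 (-0.48, adjusted p = 0.0246) and Rybp (-0.54, adjusted p = 0.0288) were lower.

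Prkci (ENSMUSG00000037643) encodes atypical protein kinase C iota, which acts with Par3 and Par6 at the apical side of epithelial cells. It was at 134, 142, 205 and 135 CPM in oral WT tumors 1 to 4 and at 83.1 and 91.4 CPM in oral KO tumors. Both KO tumors lay below all WT tumors, but the difference did not pass (log2 fold change -0.75, SE 0.24, adjusted p = 0.0779). In the pancreas it was nearly constant, with 131 to 144 CPM in WT and 135 to 143 CPM in KO tumors (log2 fold change 0.03, 95% interval -0.18 to 0.24). The interaction passed, at -0.84, and was lost with 10 counts required in every tumor (-0.65, adjusted p = 0.0501), and without either oral KO tumor, pancreatic WT tumor 1 or 3 or pancreatic KO tumor 2 or 3, with adjusted p up to 0.0839. Scaling on protein-coding genes alone put it at -0.63 with adjusted p = 0.0817.

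Of the 15 polarity genes listed with Prkci, 1 fell in oral KO tumors, Pard6g, a Par6 protein (-0.76, SE 0.19, adjusted p = 0.0435). None passed in pancreatic KO tumors with edgeR, with 3 at an unadjusted p under 0.05 and 3 called by DESeq2. The list differed more between the tissues, with 1 of 15 higher and 9 lower in oral WT tumors and a median of -0.67, against 12.1% and 11.6% of all genes. The adaptor Pard3b was higher (2.37, SE 0.35, adjusted p = 0.00245), and the scaffolds Dlg1 (-0.72, adjusted p = 0.00299) and Mpp5 (-0.65, adjusted p = 0.00347) were lower. The paralog Prkcz was lower as well (-1.83, SE 0.36, adjusted p = 0.00744), while Prkci itself stood at 0.16 (95% interval -0.18 to 0.50). Squamous epithelium markers moved in the same direction, with sums of 4662 to 9144 CPM in oral WT and 10389 to 18861 CPM in pancreatic WT tumors, a median of -1.10 and 3 of 7 lower (Krt5, Krt6a and Epcam). Fibroblast markers moved in the opposite direction, and the part of either in the list's difference was not tested.

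Pik3ca (ENSMUSG00000027665), the p110-alpha catalytic subunit of PI3K, passed in no comparison. It ran from 70.2 to 83.5 CPM in oral WT, 64.8 to 65.3 in oral KO, 82.6 to 100.6 in pancreatic WT and 81.9 to 103 in pancreatic KO tumors. The 95% interval of its log2 fold change was -0.57 to 0.22 in oral and -0.29 to 0.27 in pancreatic tumors. Of the catalytic paralogs Pik3cb was lower in oral than in pancreatic WT tumors (-1.06, SE 0.20, adjusted p = 0.00570) and at -0.75 in pancreatic KO tumors (adjusted p = 0.124). Pik3cd and Pik3cg, the leukocyte forms, had log2 fold changes from -0.45 to 0.30 between KO and WT tumors. Of 23 PI3K genes, 1 rose and 3 fell in oral KO tumors. Rictor, a subunit of mTORC2, rose (0.81, SE 0.16, adjusted p = 0.0257). The regulatory subunit Pik3r2 (-0.99, adjusted p = 0.0230) and the kinase Akt2 (-0.73, adjusted p = 0.0390) fell. None of 23 passed in the pancreas with edgeR, with 5 at an unadjusted p under 0.05 and 3 by DESeq2. Between WT tumors 2 were higher in oral tumors, Pik3r1 (0.60, adjusted p = 0.00748) and Irs1 (2.22, adjusted p = 0.0156), and 5 were lower. The latter were led by Pdk1 (-1.26, adjusted p = 0.00213), a pyruvate dehydrogenase kinase rather than a part of PI3K signalling, and Pdpk1 (-0.56, adjusted p = 0.00510), the kinase that activates AKT.

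Ect2 (ENSMUSG00000027699), the guanine nucleotide exchange factor that starts the cleavage furrow, varied within oral tumors more than between genotypes. It was at 54.4, 47.4, 73.0 and 35.4 CPM in oral WT tumors and 29.9 and 57.6 CPM in oral KO tumors (log2 fold change -0.20, 95% interval -1.03 to 0.64). In the pancreas it ran from 38.0 to 48.0 CPM over all 7 tumors. Of 15 cytokinesis genes 2 fell in oral KO tumors, the exchange factor Net1 (-1.66, SE 0.27, adjusted p = 0.0201) and the GTPase Rhoa (-0.92, SE 0.19, adjusted p = 0.0296). None passed in the pancreas with edgeR, with 1 at an unadjusted p under 0.05 and 1 by DESeq2. Between WT tumors the GTPases Rac1 (-0.67, adjusted p = 0.00893) and Cdc42 (-0.55, adjusted p = 0.0210) were lower in oral tumors. None of 17 proliferation genes passed between KO and WT tumors in either tissue by edgeR or DESeq2, with 3 in oral tumors and none in the pancreas at an unadjusted p under 0.05. The median log2 fold change of the 17 was -0.63 in oral and 0.04 in pancreatic tumors. That of the 15 cytokinesis genes was -0.50 and 0.02, and that of protein-coding genes -0.21 and 0.02. The lack of calls thus does not show that these genes were unchanged in oral tumors.

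Actl6a (ENSMUSG00000027671) encodes BAF53A, an actin-related subunit of the BAF (SWI/SNF) chromatin remodelling complex. It was at 33.9 to 51.1 CPM in oral WT and 24.7 and 29.4 CPM in oral KO tumors, which do not overlap, and the difference did not pass (-0.48, SE 0.24, adjusted p = 0.187). In the pancreas it was at 28.97 to 44.6 CPM in WT and 33.3 to 44.7 CPM in KO tumors (0.17, 95% interval -0.26 to 0.60). Its neuronal paralog Actl6b averaged at most 0.069 CPM per kb in any group and was not tested. Of 23 BAF genes tested in oral tumors 1 fell, Smarcd2 (-0.85, SE 0.17, adjusted p = 0.0281). Of 24 tested in the pancreas none passed with edgeR, with 1 at an unadjusted p under 0.05 and none by DESeq2. Between WT tumors Smarcd3 (1.62, adjusted p = 0.0129) and Smarce1 (0.57, adjusted p = 0.0398) were higher in oral tumors.

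Fxr1 (ENSMUSG00000027680), the member nearest to Sox2, encodes an RNA-binding protein of the fragile X family. It was at 83.0 to 99.1 CPM in oral WT, 59.6 and 82.2 in oral KO, 69.4 to 98.7 in pancreatic WT and 93.6 to 105 CPM in pancreatic KO tumors. Its log2 fold changes pointed in opposite directions, -0.26 (SE 0.19) in oral and 0.27 (SE 0.13) in pancreatic tumors, and their difference did not pass (interaction -0.59, SE 0.22, adjusted p = 0.0848). The paralogs Fxr2 and Fmr1 had log2 fold changes from -0.15 to 0.19 between KO and WT tumors. None of the 8 genes of this family and its partners passed in oral KO tumors, where none had an unadjusted p under 0.05 and DESeq2 called none. The same held in the pancreas, with 1 at an unadjusted p under 0.05. Between WT tumors G3bp2 (0.58, adjusted p = 0.0317) and Cyfip2 (1.09, adjusted p = 0.0355) were higher in oral tumors.

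Skil (ENSMUSG00000027660) encodes SnoN, which with its paralog Ski represses SMAD targets of TGF-beta. It ran from 114 to 211 CPM in oral WT, 122 to 144 in oral KO, 118 to 207 in pancreatic WT and 145 to 209 CPM in pancreatic KO tumors, and KO and WT tumors overlap in each tissue. Its log2 fold change was -0.22 (95% interval -0.84 to 0.41) in oral and 0.19 (95% interval -0.28 to 0.67) in pancreatic tumors. Ski had -0.71 (adjusted p = 0.0682) in oral and 0.51 (adjusted p = 0.189) in pancreatic tumors, each time without overlap of KO and WT tumors, and its interaction passed (-1.29, SE 0.26, adjusted p = 0.0125). Of 19 genes of the TGF-beta list 1 fell in oral KO tumors, the receptor Tgfbr2 (-0.86, SE 0.20, adjusted p = 0.0351). In pancreatic KO tumors 1 rose, the ligand Tgfb3 (0.87, SE 0.14, adjusted p = 0.0469), the 1 call among 165 pathway genes tested there. Between WT tumors 4 of 19 were higher in oral tumors, led by Tgfb3 (1.98, adjusted p = 0.000747) and Smad6 (1.90, adjusted p = 0.00165). The ubiquitin ligase Smurf1 (-0.65, adjusted p = 0.00699) and Smad4 (-0.54, adjusted p = 0.0189) were lower.

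Dcun1d1 (ENSMUSG00000027708) encodes SCCRO, a co-ligase for cullin neddylation. Of its 31-base sequences 24.3% occur also in other genes, mainly in a pseudogene, Tes3-ps. Its counts are thus less certain than those of the other members, which share at most 1.67%. Dcun1d1 was at 79.8 to 99.1 CPM in oral WT and 53.7 and 69.1 CPM in oral KO tumors, which do not overlap. Scaled on protein-coding genes alone they overlap, at 89.4 to 111 CPM in WT and 71.4 to 90.9 CPM in KO tumors. The difference did not pass (-0.40, SE 0.20, adjusted p = 0.189). In the pancreas it was at 86.5 to 115 CPM in WT and 88.7 to 104 CPM in KO tumors (-0.05, 95% interval -0.35 to 0.24). None of the paralogs Dcun1d2, Dcun1d3, Dcun1d4 and Dcun1d5 passed between KO and WT tumors, with log2 fold changes from -0.52 to 0.26 and unadjusted p of at least 0.133. Of 20 neddylation genes 3 fell in oral KO tumors, among them Nedd8 itself (-1.29, SE 0.19, adjusted p = 0.0190) and its E2 enzyme Ube2m (-0.68, SE 0.16, adjusted p = 0.0363). None passed in the pancreas with edgeR, with 1 at an unadjusted p under 0.05 and none by DESeq2. Between WT tumors the E2 enzyme Ube2f (-0.74, adjusted p = 0.00319) and Uba3 (-0.57, adjusted p = 0.00681) were lower in oral tumors.

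Taking the 10 pathway lists as a whole, 15 of 164 genes tested passed in oral KO tumors, or 9.15% against 13.8% of all genes, with 1 higher and 14 lower and a median of -0.35. Of protein-coding genes alone 3.51% were higher and 5.74% lower there, with a median of -0.21. In the pancreas 1 of 165 passed, or 0.606% against 0.706% of all genes, with 0.0949% of protein-coding genes higher and 0.475% lower. Among WT tumors 43 of 165 passed, or 26.1% against 23.7% of all genes, with 14.3% of protein-coding genes higher and 13.6% lower in oral tumors. For the interaction 33 of 166 passed, or 19.9% against 15.3%, with 1 higher and 32 lower. Protein-coding genes alone leaned lower as well, with 615 of 17462 higher and 1746 lower and a median of -0.28. TEC loci leaned the other way, with 652 of 2086 higher and 8 lower. Whether the pathway lists leaned lower beyond protein-coding genes in general was not tested.

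Distance from Sox2 was set beside the effects for the coding genes of the same stretch of chromosome 3. Of the coding genes that are no members, 26 were tested in oral tumors, with a median log2 fold change of -0.27. Of these, 3 rose in KO tumors, Usp13, a deubiquitinase (2.71, SE 0.50, adjusted p = 0.0238), Ttc14 (0.87, SE 0.18, adjusted p = 0.0297) and Pld1, a phospholipase (0.94, SE 0.24, adjusted p = 0.0456). Usp13 was at 12.8 and 7.42 CPM in oral KO tumors and at 1.57, 1.08, 1.05 and 2.85 CPM in oral WT tumors 1 to 4, the order of KO tumor 1, KO tumor 2 and WT tumor 4 being that of their muscle markers, whose part was not tested. In pancreatic tumors 27 were tested with a median of -0.15 and none passed with edgeR, Atp11b, between Sox2 and Dcun1d1, being at -0.85 (adjusted p = 0.100). Including noncoding loci, 9 of 51 rose and 2 fell in oral tumors, where 9.2% of all genes and 43.6% of TEC loci were higher and 4.58% of all genes lower. After Usp13 the smallest adjusted p of those that rose was that of the TEC locus Gm37123 (1.81, adjusted p = 0.0281). The 2 that fell are processed pseudogenes, Gm7536 (-0.92, adjusted p = 0.0465) and Gm6505, which had 26 to 57 estimated counts in oral WT and 0 in both KO tumors, at least 6.41-fold lower with a floor of 3 counts per library. In the pancreas 4 of 72 rose, the 4 TEC loci inside Mecom, and none fell, against 0.349% and 0.357% of all genes.

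In WT tumors the stretch differed by tissue at Cldn11, a tight junction gene (4.67, adjusted p = 0.000753), and Nceh1 (1.40, adjusted p = 0.00161), both higher in oral tumors, and at Atp11b (-1.85, adjusted p = 0.00159) and Pld1 (-1.57, adjusted p = 0.00461), both lower. These lead 4 genes higher and 9 lower of 58 tested, against 12.1% and 11.6% of all genes. Sox2 itself was lower in oral than in pancreatic WT tumors (-1.07, SE 0.23, adjusted p = 0.00989). Sox2ot, the transcript in whose intron Sox2 lies, was higher in pancreatic KO tumors, at 24.8, 13.4 and 30.7 CPM against 2.05 to 2.52 CPM in WT (log2 fold change 3.33, SE 0.29, adjusted p = 0.00343). In oral tumors it was at 21.9 and 4.06 CPM in KO and 0.86, 0.77, 0.89 and 4.39 CPM in WT tumors, which overlap (3.00, SE 0.94, adjusted p = 0.0749).

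**Figure D4:**
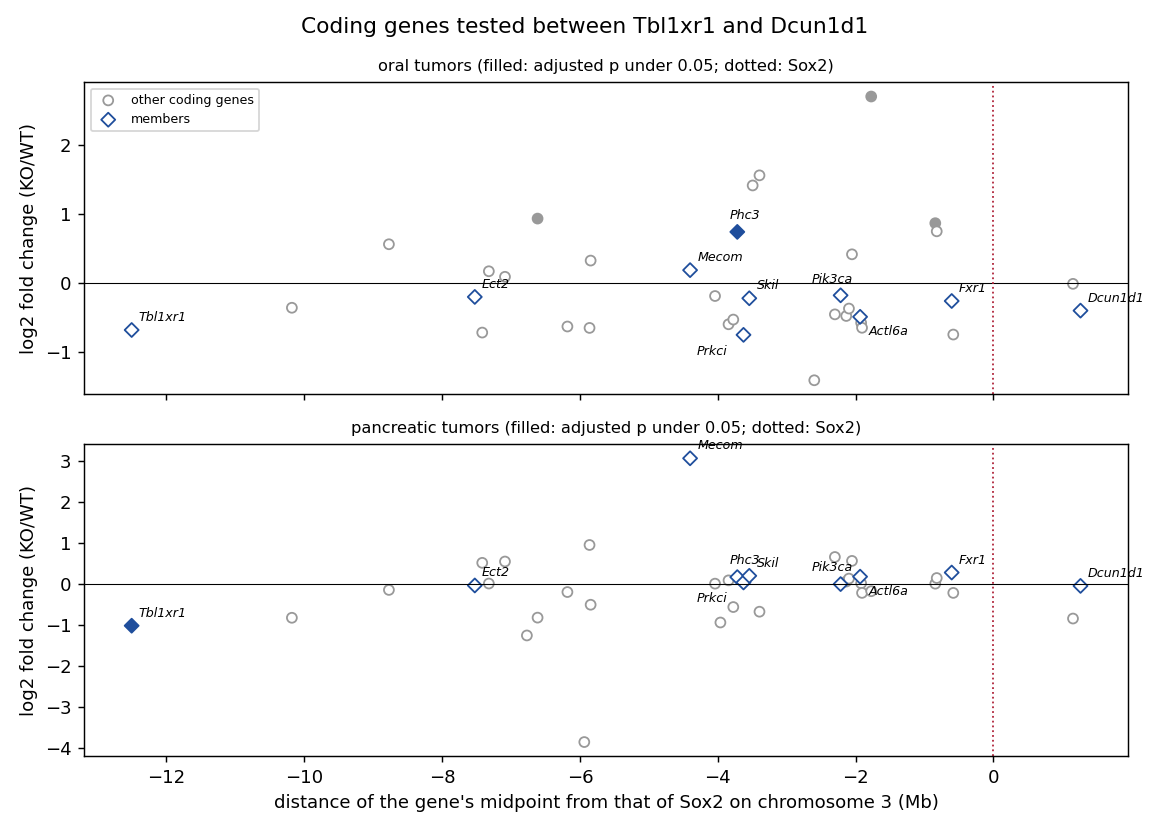
Log2 fold change, KO against WT, of the coding genes tested between Tbl1xr1 and Dcun1d1, against the distance of each gene's midpoint from that of Sox2 on chromosome 3 (Mb), in oral (top) and pancreatic tumors (bottom); diamonds are members, circles are other coding genes, and filled symbols passed an adjusted p of 0.05. Tbl1xr1, the farthest at -12.5 Mb, is the 1 filled symbol in pancreatic tumors, and Fxr1, the nearest member, lies at 0.27.

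The chromosome 16 part of the human block was read from 55 listed orthologs, all found. Of 50 tested in oral tumors 1 rose, Yeats2, a chromatin reader (0.75, SE 0.19, adjusted p = 0.0434), and 1 fell, the clathrin adaptor Ap2m1 (-0.82, SE 0.19, adjusted p = 0.0341). Of all genes 9.2% were higher and 4.58% lower there. None of 51 passed in the pancreas with edgeR, with 10 at an unadjusted p under 0.05 and 4 by DESeq2. The median was -0.14 in oral and 0.05 in pancreatic tumors. Between WT tumors 5 of 51 were higher in oral tumors, led by Chrd (2.35, adjusted p = 0.00126) and Abcc5 (1.32, adjusted p = 0.00232), and 11 were lower, led by Ephb3 (-1.38, adjusted p = 0.00159) and Dlg1. Of all genes 12.1% were higher and 11.6% lower in that comparison. For the 39 listed chromosome 3 orthologs other than the members, 3 of 28 passed in oral KO tumors, those named above, none of 29 in pancreatic KO tumors (8 at an unadjusted p under 0.05, 5 by DESeq2) and 7 of 30 between WT tumors. Over all genes the shares that passed with edgeR were 13.8%, 0.706% and 23.7% in that order.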

How the data were processed

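Bulk RNA sequencing of 13 mouse tumors was used. After rRNA depletion and stranded library preparation from total RNA, the authors used Trim Galore 0.6.10 for trimming, FastQC 0.12.1 for read quality and kallisto 0.50.0, set for stranded reads, for quantification, versions per the submitters' processing notes, and the values are sums per gene by tximport. The deposited values are estimated counts per gene without scaling. They were rounded, since 27.3% are not whole. Of 56085 Ensembl identifiers 55332 had values. These were matched to GENCODE M21 (GRCm38) for symbols, gene types, positions and exon lengths, and 55141 of the 55332 matched.

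A gene was tested where 2 or more tumors reached 10 counts. KO was compared with WT in each tissue, WT tumors between tissues, and the interaction in all 13 tumors, with edgeR 4.0.16 in R 4.3.3 (TMM, robust quasi-likelihood, Benjamini-Hochberg over all genes tested), at an adjusted p under 0.05. CPM use TMM factors of all 13 tumors. The depth per tumor stands in the report, and counting floors cover counting error only. The fits were also run on simulated counts, with changes larger than those called for Phc3, Tbl1xr1 and Prkci and no difference in cell content between groups. That run does not test calls of their size.

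The members, gene lists and tests were chosen with earlier results of these data known, and nothing they show again is independent support. Named are the 10 members and 16 paralogs in each comparison, Sox2, Sox2ot and, of each list and of the stretch from Tbl1xr1 to Dcun1d1, at most 2 genes up and 2 down with the smallest adjusted p under 0.05. Other genes were named after their values were seen. Counts of list genes at an unadjusted p under 0.05 were not set against a share of all genes, and do not single out a list. Calls by DESeq2 over all genes in KO against WT tumors are given at the end, beside which its calls in the lists are to be read. The lists are PI3K signalling, atypical PKC polarity, Ect2 and cytokinesis, the BAF complex, the fragile X family, the PRDM family, SKI and TGF-beta, cullin neddylation, NCoR/SMRT, PRC1, orthologs on chromosomes 3 and 16, proliferation and 7 lists of cell type markers. Dlg1 is in the polarity and chromosome 16 lists. Alternatives were DESeq2 size factors, no filter, 10 counts in every tumor, no robust dispersions, DESeq2 1.42.0 with and without apeglm 1.24.0, the tumor number as a replicate block, protein-coding genes alone, thinned counts, a single fit over the 13 tumors, and omission of each tumor in turn. Deviations from the group means of tumors that share a number had correlations from -0.08 to 0.32, highest for KO and WT pancreatic tumors numbered 1. With so few tumors in a group this cannot show whether numbers pair them. The main fits used no pairing. Promoter sequences came from RefSeq on GRCm38.p6. Protein sequences were not used here.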

Additional observations from a re-analysis of the deposited data

Results flagged for a closer look

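Of 24 groups of 4 tumors looked at, 4 had a tumor far from the other 3. Chance gives about 1 in 20 groups where values are independent and normally spread. The groups here are different genes in the same oral and pancreatic WT tumors, read in CPM without logs. An excess over chance is therefore not shown. Prkci was at 204.9 CPM in oral WT tumor 3, Dcun1d1 at 99.1 CPM in the same tumor, Mecom at 24.9 CPM in pancreatic WT tumor 4 and Sox2ot at 4.39 CPM in oral WT tumor 4. Without oral WT tumor 3 the oral log2 fold change of Prkci was -0.56 (adjusted p = 0.0606 by edgeR), and without pancreatic WT tumor 4 that of Mecom in the pancreas was 3.63 (adjusted p = 0.0156).

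The effect of genotype differed between tissues, by the interaction test of edgeR with an adjusted p under 0.05, for 2 members, 4 paralogs and 28 further genes that the rule for named genes takes up in some comparison. That rule takes at most 2 a direction from each list, so that not every call of a list is named. The BAF and PRC1 lists had 8 calls each, all lower, and the neddylation list 5. Most calls were lower among protein-coding genes in general too, with 615 of 17462 higher and 1746 lower. The values are differences of log2 fold changes, oral minus pancreatic. Mecom was at -2.99 and Prkci at -0.84, and the paralogs Ski at -1.29, Phc1 at -1.19, Phc2 at -0.95 and Tbl1x at -0.79. In the PI3K list Akt1 was at -1.32, Pik3r2 at -1.15, Akt2 at -0.88 and Rictor at 1.03. In the cytokinesis list Rhoa was at -1.10 and Cdc42 at -0.66. In the BAF list Bcl7b was at -1.13 and Smarcd2 at -0.84, and in the PRC1 list Cbx8 was at -1.30, Cbx2 at -1.17 and Pcgf2 at -0.98. Prdm4 was at -0.81, Rxra at -1.03, Tgfb3 at -1.67, Tgfbr2 at -0.91, Nedd8 at -1.50 and Ube2m at -0.86. On chromosome 3 Gm6505 was at -9.05 (listed at 0 counts in both oral KO tumors, so that the fitted value is no measure of size), Nceh1 at -1.29, Zmat3 at -1.16, Gm38029 at 3.19, Usp13 at 2.81, Gm37123 at 1.70, Pld1 at 1.69 and Ttc14 at 0.80. On chromosome 16 Eif4g1 was at -1.02, Ap2m1 at -1.01 and Yeats2 at 0.66. Depth, muscle markers and the protein-coding share moved with genotype in oral tumors, and their part in these differences was not tested.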

How the results depend on the processing

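Of 730 values of members under the alternatives, 648 kept their direction and side of the threshold, 36 lost and 17 gained significance, and 29 turned sign. Most of the 730 belong to results that did not pass in the main fit and could not be lost. All 36 losses fall on the member calls. Phc3 in oral tumors passed in 8 of 16 alternatives and Tbl1xr1 in the pancreas in 12 of 17. Mecom passed between tissues in 16 of 18. In the interaction Mecom passed in 11 of 22 and Prkci in 12 of 22. Of 1687 values of other named genes the numbers were 1369, 308, 6 and 4. In oral KO tumors 1 member passed, against 0 without a count filter, among protein-coding genes alone and with the tumor number as a replicate block, 2 with DESeq2 (with or without apeglm), 4 in 1 fit of all 13 tumors and 0 to 1 with each tumor left out. In pancreatic KO tumors 1 passed, against 0 among protein-coding genes alone, 2 without robust dispersions, with DESeq2 (with or without apeglm), with the replicate block and in 1 fit of all tumors, and 0 to 2 with each tumor left out. Between WT tumors it was 0 to 1 with each tumor left out. For the interaction 2 passed, Mecom and Prkci, against 1 without a count filter (Prkci), 1 among protein-coding genes alone and 1 with thinned counts (in both Phc3, while Mecom and Prkci were lost), 0 with the replicate block, and 0 to 4 with each tumor left out.

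Values that turned sign did not pass in either setting. In oral KO tumors these were Pik3ca (0.020) and Ect2 (0.0068) among protein-coding genes alone and Mecom (-0.14) with the replicate block. In pancreatic KO tumors they were Pik3ca without a filter (0.028) and with 10 counts in every tumor (0.0098), and Dcun1d1 with the replicate block (0.020). Between WT tumors Skil was at 0.0045 with DESeq2 size factors and with DESeq2, 0.0048 with apeglm, 0.010 without a filter and 0.0015 with 10 counts in every tumor. The interaction of Sox2ot was at 0.0094 with the replicate block. With each tumor left out, oral values ran from -0.70 to 0.19 for Ect2, -0.89 to 0.83 for Mecom and -3.08 to 0.10 for Gm43672. Pancreatic values ran from -0.11 to 0.064 for Pik3ca, -0.0078 to 0.066 for Prkci, -0.11 to 0.053 for Ect2 and -0.14 to 0.017 for Dcun1d1. Values between WT tumors ran from -0.0029 to 0.23 for Prkci, -0.15 to 0.13 for Skil and -0.21 to 0.037 for Tbl1xr1, and interactions from -0.75 to 0.13 for Ect2 and -2.14 to 0.62 for Sox2ot. The cause was not tested.

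Over all genes the calls in oral KO tumors were 3080, against 65 with the replicate block, 27 among protein-coding genes alone, 5178 with DESeq2, 7554 in 1 fit of all tumors and 36 to 2893 with each tumor left out. In pancreatic KO tumors they were 174, against 730, 12, 1711 and 98 in the same order and 43 to 300, with 293 without a filter and 87 with 10 counts in every tumor. For the interaction they were 3960, against 1629 with the block, 1096 among protein-coding genes alone, 6142 with DESeq2, 2399 with thinned counts and 1714 to 4957. The shift of scale was 0.19 (log2) in oral tumors and 0.20 for the interaction among protein-coding genes alone, and 0.11 and 0.19 with 10 counts in every tumor. Calls split into 2056 higher and 1024 lower in oral KO tumors, against 1813 and 1440 without a filter and 2777 and 2401 with DESeq2. Interaction calls split into 1991 higher and 1969 lower, against 1300 and 2142 without a filter. With the replicate block the pancreatic difference of Mecom was 3.55 (adjusted p = 0.00664). Each of the oral calls rests on 2 KO tumors, of which the shallower had 11735031 counts.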
